A study of Mus musculus with 18 samples.

Results

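The transcripts described here code for 10 plasma carrier proteins of the liver, Alb, Ttr, Ahsg, Fetub, Rbp4, Gc, Afm, Azgp1, Serpina6 and Pon1, taken by gene symbol from the gene count tables. All 10 were found in each of 3 tables, which list 18108 genes for the Pico kit, 18051 for V4 and 19424 for TruSeq (21018 genes in at least 1 table). The tables hold RNA-Seq counts of liver from male C57/B6J mice aged 12 weeks. In this inbred strain 3 mice were given IL-1β at 20 μg/kg (I9579, I9582 and I9583) and 3 mice were given saline (U9574, U9575 and U9576), and livers were taken 4 hours later. RNA of each mouse entered every kit, which gave 18 libraries, so the kits share their mice and are not independent repeats of the treatment. Pico is a stranded kit for total RNA, TruSeq a stranded poly(A) kit and V4 an unstranded poly(A) kit. Kit, RNA input and sequencing run cannot be told apart. Neither can read length where TruSeq is compared, while Pico and V4 shared theirs. Whole liver was used, so hepatocytes and other liver cells were measured together, and fewer cells of a type cannot be told apart from less RNA per cell.

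Hepatocytes secrete most of the protein of blood plasma. The cytokine IL-1β sets off the acute-phase response, during which the liver makes more of the positive acute-phase proteins, such as serum amyloid A, and less of the negative ones, of which albumin and transthyretin are the classical examples in plasma. Many negative acute-phase proteins are carriers that hold hormones, vitamins, lipids or minerals in the blood, and their plasma level also depends on how long the protein lasts. The question asked of the tables was which carrier transcripts were lower 4 hours after IL-1β, by how much, and whether the answer was the same in each kit.

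The albumin gene family lies on chromosome 5. In the mm9 build Alb (ENSMUSG00000029368, chr5:90889915-90905629, plus strand) codes for albumin, which carries fatty acids, bilirubin and many drugs. Afm (ENSMUSG00000029369, chr5:90947958-90982569, plus strand) codes for afamin, a carrier of vitamin E, and starts 42.3 kb after the end of Alb. The fetal carrier gene Afp stands between them, 14.1 kb from Alb and 10 kb from Afm. Gc (ENSMUSG00000035540, chr5:89846549-89886790, minus strand) codes for the vitamin D binding protein and ends 1003 kb before Alb. The 250 bases before the annotated start of these 3 members are shown because they share a pattern of 9 bases and because the responses of these 3 genes are compared below, from RefSeq on the GRCm38.p6 build and in the direction of the gene, with matches to GTTAATNAT in capitals.
Alb, chr5:90460620-90460869, plus strand: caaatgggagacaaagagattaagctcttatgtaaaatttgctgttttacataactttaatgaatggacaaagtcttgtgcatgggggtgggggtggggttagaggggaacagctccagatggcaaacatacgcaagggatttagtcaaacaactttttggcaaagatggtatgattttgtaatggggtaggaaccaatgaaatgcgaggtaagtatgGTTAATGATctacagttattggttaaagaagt
Afm, chr5:90518699-90518948, plus strand: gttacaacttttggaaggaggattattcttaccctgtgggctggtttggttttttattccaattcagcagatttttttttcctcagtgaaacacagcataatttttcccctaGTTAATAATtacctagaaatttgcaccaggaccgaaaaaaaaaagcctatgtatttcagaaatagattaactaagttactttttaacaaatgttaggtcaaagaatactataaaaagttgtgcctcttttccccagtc
Gc, chr5:89457899-89458148, minus strand: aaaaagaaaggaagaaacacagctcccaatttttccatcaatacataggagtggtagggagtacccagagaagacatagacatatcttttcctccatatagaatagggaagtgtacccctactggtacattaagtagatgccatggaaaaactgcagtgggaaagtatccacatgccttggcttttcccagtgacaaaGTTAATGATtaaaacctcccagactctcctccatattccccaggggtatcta

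The pattern was picked after these sequences were read. It lay 32 to 24 bases before the start in Alb, 138 to 130 in Afm and 52 to 44 in Gc, on the strand of the gene in each. The 8 members with a RefSeq promoter entry had 10 windows, and the pattern stood in 3 of them, those of Alb, Afm and Gc. On either strand it stood in 242 of all 32851 promoter windows, or 0.737%. Afp, looked up after the others, held it 105 to 97 bases before its start. For the other letters searched on both strands, CCAAT stood in 7 of the 10 member windows (33.8% of all windows) and TATAAA in 3 (12.4%). TTGCNNAA, the form of a C/EBP site, stood in 4 (9.56%) and GGGNNTTCC, a short form of an NF-kappaB site, in 0 (4.98%). Ttr and Serpina6 had no promoter entry. A match of letters is a description of the window only.

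Ahsg (ENSMUSG00000022868, chr16:22892115-22899511, plus strand) and Fetub (ENSMUSG00000022871, chr16:22918455-22939839, plus strand) code for fetuin-A and fetuin-B, cystatin-like proteins of which the first binds calcium phosphate, and they lie 18.9 kb apart. Ttr (ENSMUSG00000061808, chr18:20823751-20832825, plus strand) codes for transthyretin, which carries thyroxine and also the complex of retinol with the product of Rbp4 (ENSMUSG00000024990, chr19:38191110-38199811, minus strand). Serpina6 (ENSMUSG00000060807, chr12:104884840-104895422, minus strand) codes for the corticosteroid binding globulin. Azgp1 (ENSMUSG00000037053, chr5:138422749-138431461, plus strand) codes for zinc-alpha-2-glycoprotein, a lipid-mobilizing protein, and Pon1 (ENSMUSG00000002588, chr6:5118090-5143946, minus strand) for paraoxonase 1, an esterase carried on high-density lipoprotein. In the mm9 annotation Ttr was the only member to share exon bases with another gene, 11 bases of Gm16090 on the opposite strand.

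The carriers made up a large share of the liver's messages. In the saline mice the 10 members together held 10.1% ± 0.827 of the TruSeq gene counts, 5.84% ± 0.582 of the Pico counts and 5.67% ± 0.35 of the V4 counts (SD, n = 3 mice). After IL-1β the shares were 6.94% ± 0.401 in TruSeq, 4.43% ± 0.308 in Pico and 4.23% ± 0.181 in V4, and the ranges of the treatments did not overlap in any kit. Alb alone held 7.65% of the TruSeq counts in the saline mice and 4.99% after IL-1β. For the other 9 members the mean share was 2.5% in saline and 1.94% in IL-1β mice in TruSeq, 1.54% and 1.24% in Pico, and 3.33% and 2.64% in V4, again without overlap. Library totals lay between 4024632 and 4134070 gene counts for Pico, 12013453 and 12352473 for V4, and 12348864 and 12858237 for TruSeq, so Pico values rest on the fewest reads.

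Between genes, levels were compared per length, as RPKM (reads per kilobase of merged exon, scaled to the gene counts of the library). In TruSeq libraries of the saline mice Alb stood first at 37453 ± 3636 RPKM and Afm last at 73.7 ± 6.14, a ratio of 508. Ahsg followed Alb at 5038 ± 158, then Ttr at 4228 ± 494 and Gc at 3985 ± 76.8, whose ranges over the mice overlapped. Rbp4 (1954), Azgp1 (1161), Pon1 (508), Fetub (249) and Serpina6 (131) came next in this order, and no other neighbours overlapped. Alb was first, Afm last, and Azgp1, Pon1, Fetub and Serpina6 were in places 6 to 9 in every kit. The middle of the order changed between kits. Rbp4 was in place 5 in Pico and TruSeq but in place 3 in V4, where the ranges of Ttr (5625 ± 1206), Rbp4 (5326 ± 1337) and Ahsg (5204 ± 45.3) overlapped.

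**Figure D1:**
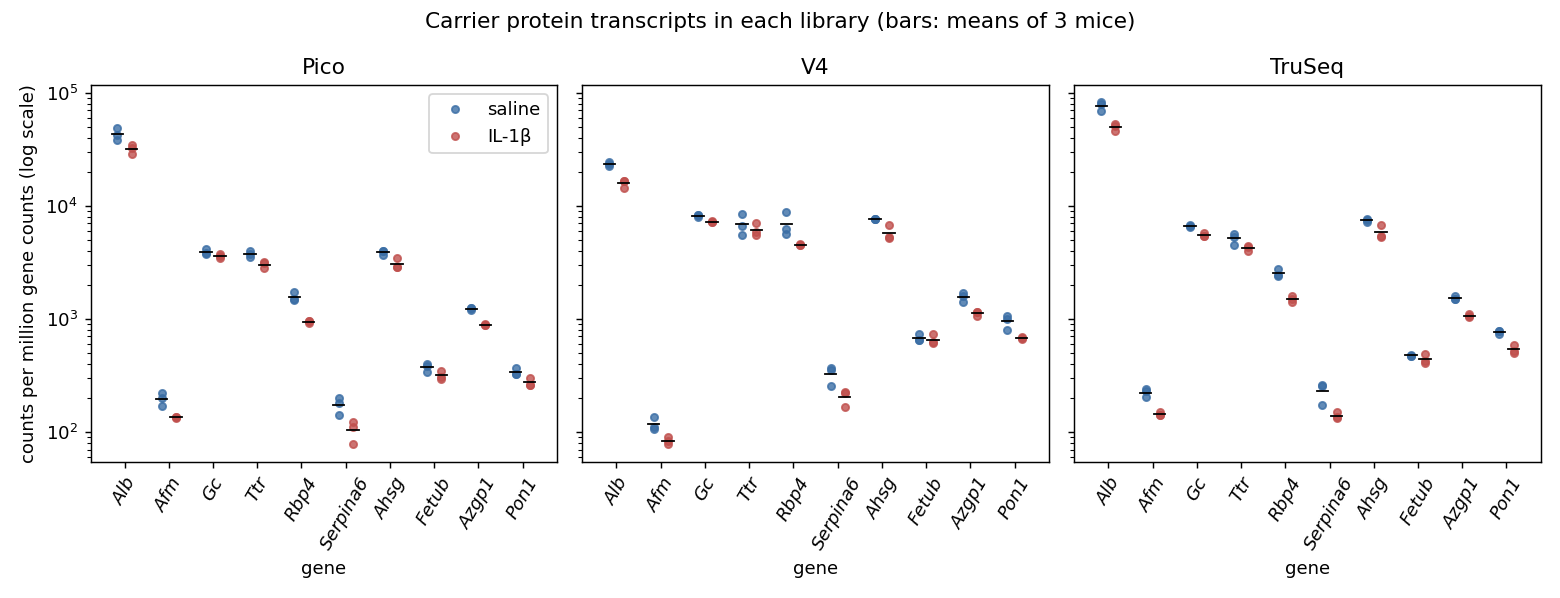
Level of the 10 carrier transcripts in each library, in CPM on a log axis, with 1 panel per kit, 1 point per mouse and bars at the means of 3 mice. After IL-1β 9 transcripts lay below all saline mice in Pico and TruSeq and 8 in V4, and Fetub overlapped in each kit.

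With library totals as the scale, limma-voom with Benjamini-Hochberg adjustment over all genes of a kit (called at an adjusted p of at most 0.05) found 8 of the 10 members lower after IL-1β in TruSeq, 7 in Pico and 6 in V4, and none higher. Of all genes tested 21.8% were called lower and 12.3% higher in TruSeq, 10.8% and 6.78% in Pico, and 7.41% and 3.6% in V4. Alb, Ahsg, Rbp4, Azgp1 and Serpina6 were called in every kit, Afm and Pon1 in 2 kits, Ttr and Gc in 1 kit and Fetub in none. In CPM (gene counts scaled to equal library totals) the IL-1β mice lay below all saline mice for 9 members in TruSeq (27.9% of all genes), 9 in Pico (18.6%) and 8 in V4 (18.6%). The median log2 fold change of the members was -0.51 in TruSeq (-0.17 over all genes), -0.38 in Pico (-0.12) and -0.48 in V4 (-0.22).

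The scale decided several of these calls. TMM factors, which centre on the bulk of the genes, shifted the median over all genes upward, by 0.16 in TruSeq, 0.13 in Pico and 0.17 in V4 on the log2 scale. Among all called genes 36% were higher in TruSeq with library totals and 50.9% with TMM factors, 38.6% and 52.9% in Pico, and 32.7% and 49.7% in V4. With TMM factors 5 members were called lower in Pico (8.16% of all genes), 1 in V4 (4.84%) and 6 in TruSeq (16.1%). Alb was then called in all 3 kits, Rbp4, Afm, Azgp1 and Serpina6 in Pico and TruSeq, Pon1 in TruSeq only, and Ttr, Ahsg, Gc and Fetub in no kit. The members' median was then -0.35 in TruSeq, -0.25 in Pico and -0.31 in V4, and it lay below that of all genes in each kit (-0.01, 0.02 and -0.06).

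**Figure D2:**
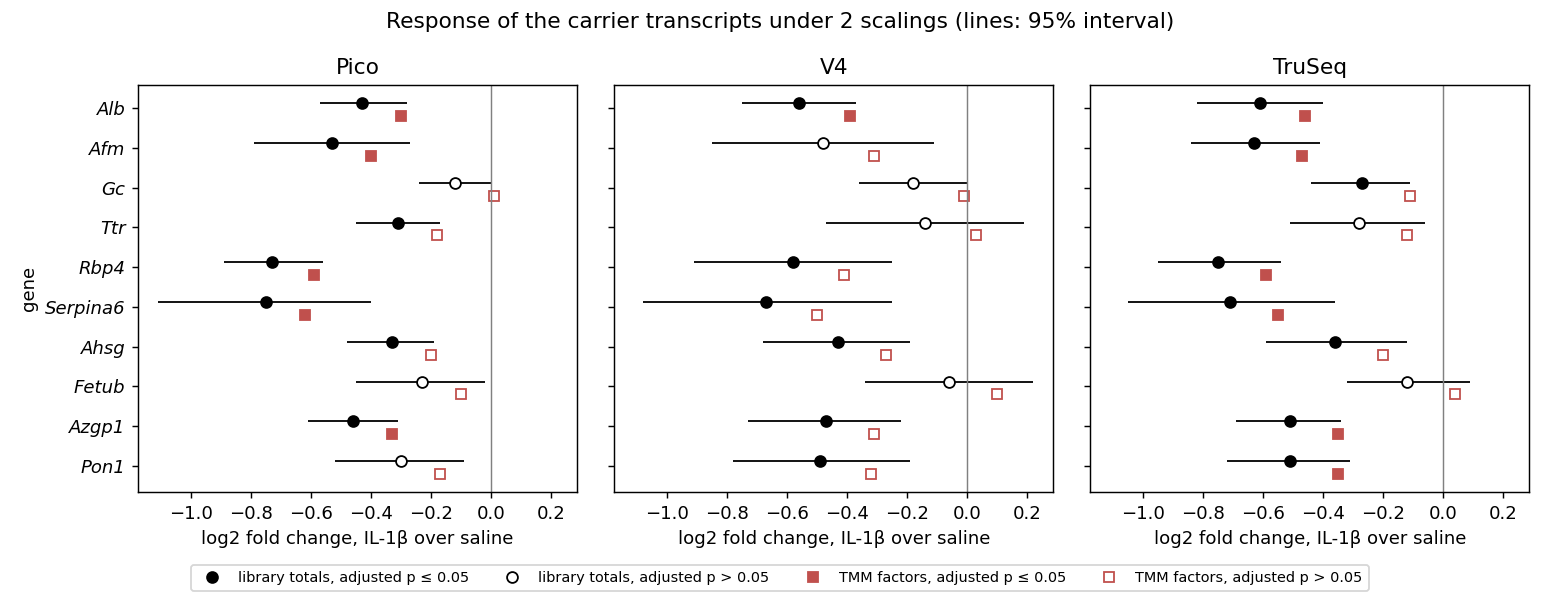
Log2 fold change of each carrier transcript, IL-1β over saline, in 3 panels by kit, with library totals (circles, lines for the 95% interval) and with TMM factors (squares), filled where the adjusted p of limma-voom was at most 0.05 (n = 3 mice per treatment). Rbp4 and Serpina6 lay farthest to the left in Pico and TruSeq under both scalings, and Gc, Ttr and Fetub lay nearest to 0 in V4 and TruSeq.

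Alb had the highest count of any gene in all 6 TruSeq libraries. Its TruSeq counts were 863619, 1007109 and 1062281 in U9574, U9575 and U9576 and 660230, 570133 and 626956 in I9579, I9582 and I9583. In Pico they were 155992, 174920 and 200107 in the saline mice and 139600, 116025 and 131116 after IL-1β. In V4 they were 268740, 294107 and 290197 in the saline mice and 202323, 174049 and 201279 after IL-1β. Every IL-1β mouse was below every saline mouse in each kit, and I9582 was the lowest of the 6 mice in each. By log2 fold change Alb was at -0.61 ± 0.09 in TruSeq (SE, adjusted p = 0.000851), -0.43 ± 0.07 in Pico (0.000274) and -0.56 ± 0.08 in V4 (0.00233), by limma-voom with library totals. With TMM factors it was -0.46, -0.30 and -0.39, and the adjusted p was 0.00578, 0.00855 and 0.0222. Alb was thus the member called in all 3 kits under both scalings.

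Afm, the next gene of the cluster, had low counts and log2 fold changes near those of Alb. In TruSeq it had 2569, 3060 and 2948 reads in U9574, U9575 and U9576 and 1882, 1748 and 1741 in I9579, I9582 and I9583. In Pico it had 698, 823 and 910 reads in the saline mice against 541, 546 and 554 after IL-1β, and in V4 1289, 1638 and 1361 against 951, 1088 and 1007. The groups did not overlap in any kit, and the 3 IL-1β mice in Pico were close together. Its log2 fold change was -0.63 ± 0.10 in TruSeq (adjusted p = 0.000866), -0.53 in Pico (0.00577) and -0.48 ± 0.17 in V4, where it was not called (limma-voom adjusted p = 0.0926). With TMM factors the values were -0.47, -0.40 and -0.31 (adjusted p = 0.00463, 0.0352 and 0.31).

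Gc, the third family member, had values nearer to 0. Its TruSeq counts were 82566, 86740 and 85081 in the saline mice and 71244, 66349 and 66885 after IL-1β, without overlap. In Pico they were 15397, 15716 and 17200 against 15245, 13787 and 14496, and in V4 99074, 101204 and 98570 against 87571, 88296 and 86331. The treatments thus stood apart in each kit, in Pico by a narrow margin. In TruSeq the log2 fold change was -0.27 ± 0.07 (limma-voom adjusted p = 0.0181), the only kit in which Gc was called, against -0.12 in Pico (0.166) and -0.18 in V4 (0.194). With TMM factors it was -0.11, 0.01 and -0.01, with its sign turned in Pico, and Gc was not called in any kit.

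The ratio of 2 transcripts in the same library does not depend on the scale. It was taken as the log2 ratio of counts, not per length, so only its change between treatments is read, and the 5 ratios in 3 kits (15 in all) were chosen after the values were seen. The exact permutation test of 3 against 3 mice cannot go below a two-sided p of 0.1, which is the value wherever the treatments stand apart. The change of Alb to Gc was -0.34 in TruSeq (3.52 ± 0.13 in saline and 3.18 ± 0.07 in IL-1β mice, SD), -0.30 in Pico (3.45 ± 0.10 and 3.15 ± 0.07) and -0.38 in V4 (1.51 ± 0.06 and 1.14 ± 0.14), with no overlap in any kit. Each IL-1β library thus held less Alb for its Gc than any saline library of its kit. Alb to Afm changed by 0.02 in TruSeq, 0.10 in Pico and -0.08 in V4, with overlap in each kit and exact permutation p = 1, 0.4 and 0.6.

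**Figure D3:**
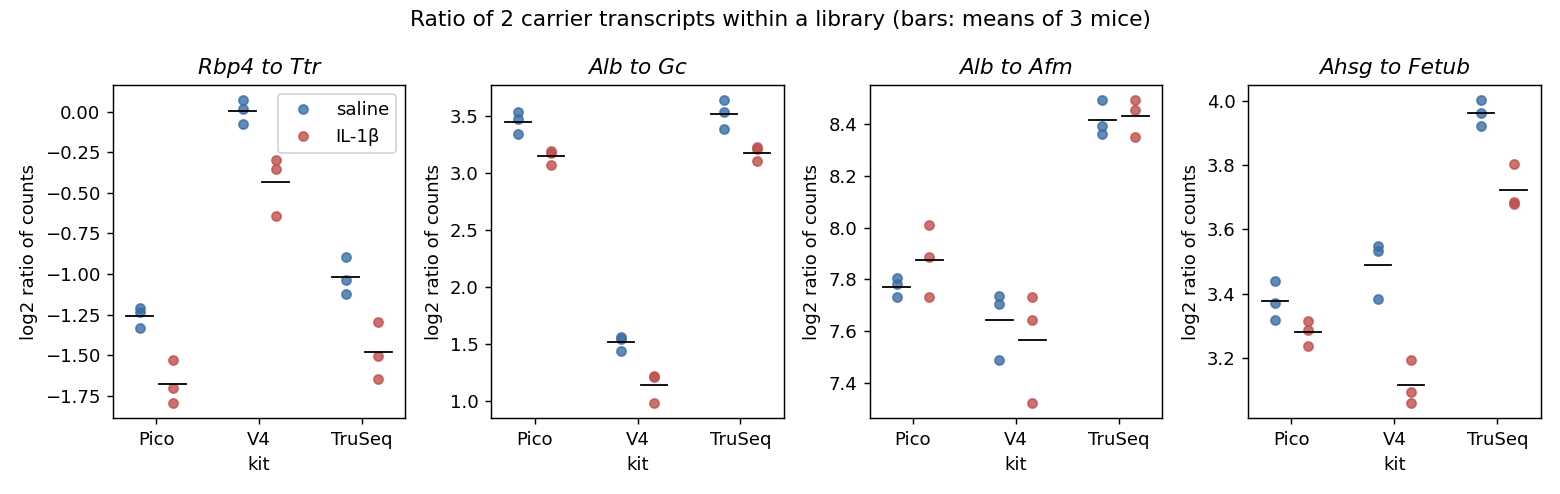
Log2 ratio of the counts of 2 carrier transcripts within a library, by kit, with 1 point per mouse and bars at the means of 3 mice (axes differ between panels and do not start at 0). Rbp4 to Ttr, Alb to Gc and Ahsg to Fetub were lower in the IL-1β mice in every kit without overlap, and Alb to Afm overlapped in every kit.

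Rbp4, the retinol carrier, and Serpina6, the cortisol and corticosterone carrier, had the lowest log2 fold changes of the 10 members in Pico and TruSeq. They did so in V4 as well with all mice, but without the saline mouse U9576 Rbp4 stood there at -0.38, above the values of Pon1, Serpina6, Azgp1, Alb, Afm and Ahsg, which lay between -0.61 and -0.43. In TruSeq Rbp4 had 30454, 31309 and 35386 reads in U9574, U9575 and U9576 and 17512, 18687 and 19979 in I9579, I9582 and I9583. In Pico it had 6078, 6101 and 7173 reads in the saline mice against 3714, 3835 and 3911, and in V4 67298, 75526 and 109625 against 55262, 55486 and 54131. The IL-1β mice were below all saline mice in each kit and close together in Pico and V4. In V4 the saline mouse U9576 stood far above the other saline mice. In log2 fold change this was -0.75 ± 0.09 in TruSeq (a fold of 0.596, limma-voom adjusted p = 0.000247), -0.73 ± 0.08 in Pico (0.605, adjusted p = 6.33e-06) and -0.58 ± 0.15 in V4 (0.671, adjusted p = 0.0326). Under TMM factors it was -0.59 in TruSeq and in Pico and -0.41 in V4, where the call was lost (adjusted p = 0.0894).

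Ttr, whose product carries the Rbp4 protein in plasma, had values nearer to 0. Its TruSeq counts were 56710, 68268 and 72586 in the saline mice and 54910, 53021 and 49106 after IL-1β. In Pico they were 14313, 15356 and 16613 against 12892, 12470 and 11308. In V4 they were 66594, 79574 and 104317 against 86378, 70874 and 66538, and there the treatments overlapped, with I9579 above 2 of the saline mice. Pico gave a log2 fold change of -0.31 ± 0.06 (limma-voom adjusted p = 0.00276), the only kit in which Ttr was called, against -0.28 ± 0.10 in TruSeq (0.0569) and -0.14 ± 0.15 in V4 (0.622). With TMM factors it was -0.18, -0.12 and 0.03, with its sign turned in V4 and no call in any kit.

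The transcripts of these plasma partners were set against each other within libraries. The change in the log2 ratio of Rbp4 to Ttr was -0.46 in TruSeq (-1.02 ± 0.11 in saline and -1.48 ± 0.18 in IL-1β mice, SD), -0.42 in Pico (-1.26 ± 0.06 and -1.68 ± 0.13) and -0.44 in V4 (0.00 ± 0.07 and -0.43 ± 0.19). The treatments did not overlap in any kit, at the smallest exact permutation p of 0.1. In V4 the saline mouse U9576, which was high for Rbp4, was high for Ttr too, and its ratio was the highest of the saline mice, which spanned -0.08 to 0.07. Without U9576 the change in V4 was -0.40. Rbp4 to Gc was also lower without overlap, with a change of -0.47 in TruSeq (-1.39 ± 0.11 in saline and -1.87 ± 0.14 in IL-1β mice), -0.60 in Pico (-1.32 ± 0.05 and -1.92 ± 0.10) and -0.39 in V4 (-0.28 ± 0.38 and -0.67 ± 0.00). The V4 value leaned on U9576, without which it was -0.18, still without overlap.

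Serpina6 was the most variable member among the saline mice in Pico and TruSeq. Its TruSeq counts were 2208, 3273 and 3368 in U9574, U9575 and U9576, a coefficient of variation of 21.2%, and 1659, 1662 and 1861 in I9579, I9582 and I9583. In Pico they were 581, 748 and 824 against 315, 451 and 497, and in V4 3041, 4495 and 4407 against 2034, 2677 and 2735. U9574 was the lowest saline mouse in each kit and still lay above all IL-1β mice. After IL-1β its log2 fold change was -0.71 ± 0.15 in TruSeq (limma-voom adjusted p = 0.00591), -0.75 ± 0.17 in Pico (0.00453) and -0.67 ± 0.19 in V4 (0.0453), and with TMM factors -0.55, -0.62 and -0.50 (adjusted p = 0.0221, 0.0142 and 0.126).

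The fetuin genes are neighbours on chromosome 16. Ahsg had 96084, 91632 and 96748 reads in TruSeq in U9574, U9575 and U9576 and 67659, 64854 and 84525 in I9579, I9582 and I9583. In Pico it had 16178, 15134 and 16395 against 11664, 11655 and 14031, and in V4 91227, 93150 and 95293 against 62875, 63343 and 81573. I9583 was nearest to the saline mice in each kit. With library totals the log2 fold change was -0.36 ± 0.10 in TruSeq (limma-voom adjusted p = 0.025), -0.33 in Pico (0.0026) and -0.43 in V4 (0.0305), and with TMM factors -0.20, -0.20 and -0.27, with no call in any kit (adjusted p = 0.202, 0.067 and 0.226).

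Fetub overlapped between treatments in every kit. In TruSeq it had 5996, 6048 and 6203 reads in the saline mice and 5283, 5040 and 6057 after IL-1β, in Pico 1622, 1394 and 1586 against 1236, 1194 and 1410, and in V4 7889, 7958 and 9143 against 7544, 7417 and 8914. Again I9583 was the highest of the IL-1β mice in each kit. For Fetub the log2 fold change was -0.12 in TruSeq (95% interval -0.32 to 0.09, limma-voom adjusted p = 0.391), -0.23 in Pico (-0.45 to -0.02, 0.14) and -0.06 in V4 (-0.34 to 0.22, 0.794). TMM factors gave 0.04, -0.10 and 0.10, so its sign turned in TruSeq and V4. The log2 ratio of Ahsg to Fetub was lower after IL-1β without overlap in each kit, by 0.24 in TruSeq (3.96 ± 0.04 to 3.72 ± 0.07, SD), 0.10 in Pico (3.38 ± 0.06 to 3.28 ± 0.04) and 0.37 in V4 (3.49 ± 0.09 to 3.12 ± 0.07). Ahsg was thus lower relative to Fetub in every IL-1β library than in any saline library of the same kit. The margin in Pico was narrow, with at most 3.31 in the IL-1β mice and at least 3.32 in the saline mice.

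Azgp1 varied little among the mice of a treatment, with coefficients of variation of at most 3.1% in Pico and TruSeq (9.09% in the saline mice of V4). It had 19045, 20240 and 19223 reads in TruSeq in the saline mice against 13677, 12886 and 13268 after IL-1β, 4849, 5135 and 5120 against 3559, 3663 and 3575 in Pico, and 19204, 20307 and 17337 against 12954, 13808 and 13886 in V4. The treatments stood far apart in each kit, and the log2 fold change was -0.51 ± 0.08 in TruSeq (limma-voom adjusted p = 0.000839), -0.46 ± 0.07 in Pico (0.000199) and -0.47 ± 0.12 in V4 (0.0236). With TMM factors it was -0.35, -0.33 and -0.31 (adjusted p = 0.00688, 0.00363 and 0.172). Pon1 had 9288, 10071 and 10083 reads in TruSeq against 7339, 6462 and 6261, 1319, 1350 and 1510 in Pico against 1216, 1054 and 1053, and 12019, 12913 and 9898 in V4 against 8110, 8299 and 8194. No kit had overlap. Its log2 fold change was -0.51 in TruSeq (adjusted p = 0.00203), -0.49 in V4 (0.0418) and -0.30 in Pico, where it missed the threshold (limma-voom adjusted p = 0.0505). With TMM factors it was -0.35, -0.32 and -0.17 in the same order (adjusted p = 0.014, 0.226 and 0.317).

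In CPM U9574 was the lowest saline mouse for 7 of the 10 members in each kit, namely Alb, Ttr, Gc, Afm, Azgp1, Serpina6 and Pon1 in Pico, and Alb, Ttr, Ahsg, Fetub, Rbp4, Afm and Serpina6 in V4. U9576 was the highest saline mouse for 8 members in Pico.

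Whether the response differed between kits was tested with the interaction of kit and treatment. No member was called in any of the 3 pairs of kits, nor at an unadjusted p under 0.05, and no gene of the tables was called by limma-voom or edgeR (0% of 17207 genes in Pico and TruSeq, 17147 in V4 and TruSeq and 16395 in Pico and V4, of which 5.49%, 6.36% and 5.49% had an unadjusted p under 0.05 in limma-voom). With mice paired by a replicate block 1 gene was called in Pico against TruSeq (0.00581%), and it was not a member. In that fit 3 members, Alb, Gc and Pon1, had an unadjusted p under 0.05, as 7.43% of all genes did. Their limma-voom p was 2.98e-05, 0.00477 and 0.0165 before adjustment and 0.128, 0.599 and 0.658 after it. With the block the response in Pico minus that in TruSeq was 0.18 for Alb (95% interval 0.13 to 0.24), 0.15 for Gc (0.06 to 0.24) and 0.21 for Pon1 (0.05 to 0.37), intervals that are not adjusted for the number of genes. For these 3 of the 10 members the difference in log2 CPM between the kits within a mouse did not overlap between the treatments, as for 14.4% of all genes. For Alb it was -0.68 to -0.62 in the IL-1β mice and -0.89 to -0.77 in the saline mice, for Gc -0.65 to -0.59 and -0.83 to -0.67, and for Pon1 -1.0 to -0.95 and -1.26 to -1.10. In the other pairs of kits 0 members had an unadjusted p under 0.05 with the block. Of all genes 7.37% did in V4 against TruSeq and 6.23% in Pico against V4. Without the block, for Alb the response in Pico minus that in TruSeq was 0.19 on the log2 scale (95% interval -0.07 to 0.44). For Pon1 it was 0.21 (-0.07 to 0.48), and for Ttr in V4 minus TruSeq 0.14 (-0.29 to 0.57). For Rbp4 it was 0.02 (-0.23 to 0.27) in Pico minus TruSeq and 0.17 (-0.25 to 0.59) in V4 minus TruSeq. A call in some kits and not in others therefore does not show that the response of a member differed. Without U9576 (no block), 59 genes were called in V4 against TruSeq, 39 in Pico against V4 and 0 in Pico against TruSeq, with 0 members among them. Of the members 1, 2 and 1 then had an unadjusted p under 0.05. The share of all genes at that p was not counted in these fits, so the counts have no background.

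The level at which a kit reported a carrier was compared within mice. With mouse as a replicate block limma-voom called all 10 members in Pico against TruSeq (51.7% of all genes), each lower in Pico, while the median log2 difference was 0.05 over all genes whose mean count was 10 or more. The difference ran from -0.14 ± 0.05 for Afm to -0.93 ± 0.02 for Ahsg and -1.09 ± 0.05 for Pon1 (SE). In V4 against TruSeq 8 members were called (60.4% of all genes). Rbp4 was 1.5 ± 0.06 higher in V4, followed by Fetub (0.55), Serpina6 (0.53), Ttr (0.47), Gc (0.35) and Pon1 (0.32), whereas Alb was lower by 1.68 ± 0.03 and Afm by 0.86 ± 0.07, beside a median of -0.43. Ahsg (0.01, 95% interval -0.05 to 0.07) and Azgp1 (0.04, -0.05 to 0.14) were not called, but both were higher in V4 by edgeR with TMM factors (adjusted p = 2.6e-05 and 7.1e-05). Pico against V4 called all 10 (68.6% of all genes), with Alb (0.94) and Afm (0.72) higher in Pico and the other 8 lower, from -0.34 for Azgp1 to -2.19 for Rbp4, and with TMM factors the call of Afm was lost (edgeR adjusted p = 0.124).

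**Figure D4:**
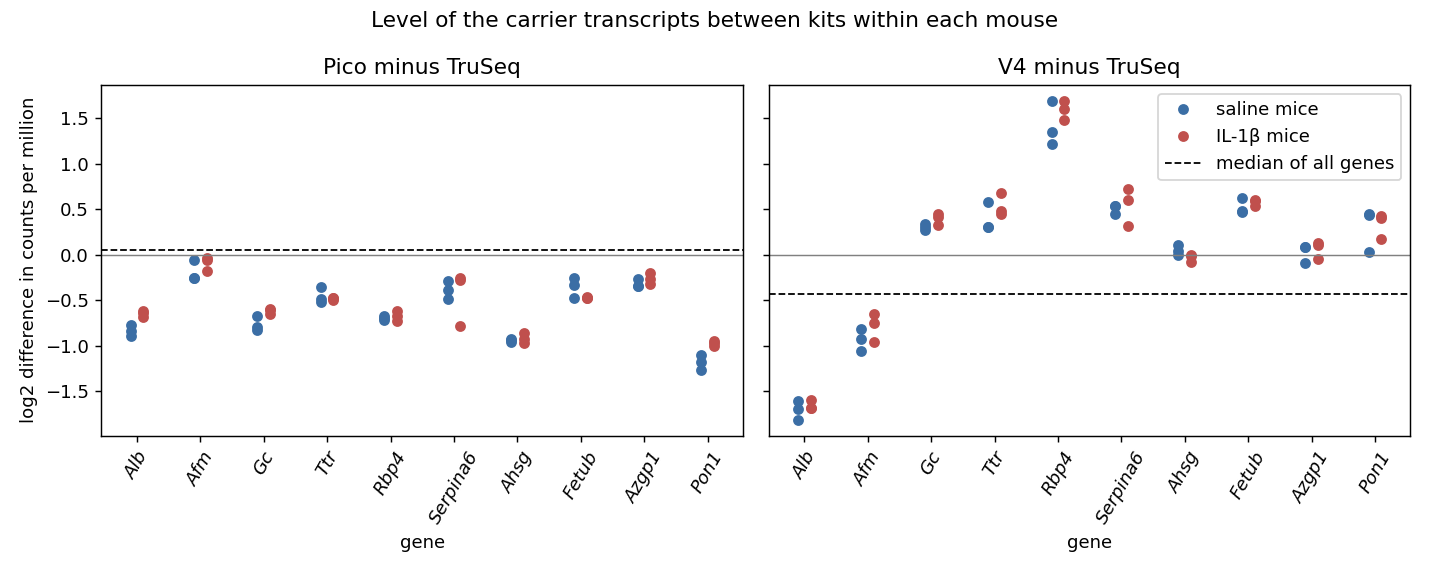
Log2 difference in CPM between kits within each mouse, Pico minus TruSeq on the left and V4 minus TruSeq on the right, with 1 point per mouse and a dashed line at the median over genes whose mean count was 10 or more. All 10 carriers lay below that median in Pico, and in V4 Alb and Afm lay below it and the other 8 above.

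Across the 10 members the difference of V4 minus TruSeq had a Spearman rho of 0.47 with the GC content of the longest coding transcript and -0.48 with its length. For Pico minus TruSeq the values were -0.08 and 0.12. These describe 10 genes that share their libraries, and the part of either property in the differences was not tested.

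Other genes were read from lists, with calls by limma-voom with library totals. Of 13 relatives of the carriers (family members of albumin, fetuin, paraoxonase, serpin and retinol binding proteins), TruSeq had 2 called higher and 8 lower, Pico 2 and 4, and V4 2 and 3 (with TMM factors 5, 1 and 0 lower, and 2 higher in each). The list contains near-identical Serpina1 copies, whose reads the counting could split. The 2 that rose were serpins of the clade of Serpina6. Serpina7, which codes for the thyroxine binding globulin, rose by a log2 fold change of 2.45 in TruSeq (from a mean of 482 to 2639 reads, adjusted p = 0.000287), 2.25 in Pico and 2.05 in V4. Serpina10, the protein Z-dependent protease inhibitor, rose by 1.78, 1.76 and 1.64. Serpina7 and Ttr both carry thyroxine, and Serpina7 and Serpina6 are both hormone-carrying serpins. Afp was at a mean of at most 6.67 reads in both treatments of each kit.

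Of 19 genes that handle what these proteins carry (retinol, thyroid hormone, vitamin D, glucocorticoid and albumin recycling), 17 were tested in Pico and V4 and 18 in TruSeq, with 2 called higher and 11 lower in TruSeq, 1 and 8 in Pico, and 0 and 6 in V4 (with TMM factors 9, 7 and 3 lower). Thrb, a thyroid hormone receptor, fell, with a log2 fold change of -1.57 in TruSeq, -1.22 in Pico and -1.66 in V4. Lrat, which esterifies retinol for storage, fell too, at -1.33, -1.85 and -2.27, the last not called with TMM factors (limma-voom adjusted p = 0.0609). Lrat is also in the list of stellate cell markers. With Lrat included, the summed level of those 7 markers was lower after IL-1β. In TruSeq it was 284 to 348 CPM in saline and 161 to 215 CPM in IL-1β mice. Of the 7 markers 3 were called lower in TruSeq, 2 in Pico and 1 in V4, and 0 higher (with TMM factors 3, 1 and 0 lower). The part of stellate cells in the change of Lrat was not tested.

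Of 14 transcription factors of liver genes, 3 were called higher and 5 lower in TruSeq and also in Pico, and 1 and 4 in V4 (4 and 5, 3 and 5, and 1 and 3 with TMM factors). Dbp, a PAR bZIP factor named for the albumin D site, fell, at -1.94 on the log2 scale in TruSeq, -2.51 in Pico and -1.93 in V4. Cebpd, a C/EBP factor of the acute phase, rose by 1.79, 1.76 and 2.06. Of 18 other secreted proteins of hepatocytes, TruSeq had 4 called higher and 8 lower, Pico 2 and 9, and V4 0 and 2. With TMM factors these counts were 5 and 2, 3 and 4, and 2 and 1, so most of the calls of a lower level in this list rested on the scale in TruSeq and Pico. Igfals, which holds insulin-like growth factors in plasma, fell, at -1.66 in TruSeq, -1.80 in Pico and -1.66 in V4, each below the value of any of the 10 carriers in that kit. Apoh, a phospholipid-binding plasma protein, was called lower at -0.42, -0.34 and -0.38, but in no kit with TMM factors (limma-voom adjusted p = 0.0758, 0.131 and 0.271).

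The positive acute-phase list was called higher in 16 of 16 genes in each kit. It was chosen with earlier results of these data known, so this count describes the list and is no test. Of all genes 12.3% were called higher in TruSeq, 6.78% in Pico and 3.6% in V4. The list's median log2 fold change was 2.19 in TruSeq, 2.0 in Pico and 2.01 in V4. Lcn2, which binds bacterial siderophores, rose from a mean of 70 to 49487 reads in TruSeq, and Saa3, a serum amyloid A gene, from 71.7 to 44066. The lowest log2 fold change among the 10 carriers, in any kit, was -0.75.

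Markers of liver cells also differed between the treatments. The 8 hepatocyte markers were all listed, and their summed level was 18052 to 20314 CPM in the saline mice and 14349 to 16140 CPM in the IL-1β mice in TruSeq, 16205 to 19013 and 12998 to 16271 CPM in V4, and 13866 to 16304 and 12965 to 14712 CPM in Pico, with overlap in V4 and Pico. Of these 8, 6 were called lower and 1 higher in TruSeq and Pico, and 4 lower and 1 higher in V4. With TMM factors 4 were called lower in TruSeq and Pico and 2 in V4, and 1 higher in each. Of 7 neutrophil markers 6 were listed in TruSeq, 5 in V4 and 4 in Pico, and 4 were called higher in each kit. Their summed level in TruSeq was 1.56 to 2.77 CPM in the saline mice and 36.5 to 75 CPM in the IL-1β mice. The summed level of 7 Kupffer cell markers in TruSeq was 134 to 223 CPM in the saline mice and 65.8 to 94.5 CPM in the IL-1β mice. Of these markers 5 were called lower and 1 higher in TruSeq, 4 and 0 in Pico, and 2 and 0 in V4 (with TMM factors 5, 3 and 1 lower). The sum of 7 endothelial markers in TruSeq was 158 to 184 CPM against 81.9 to 103 CPM, and 5 were called lower and 1 higher in TruSeq, 4 and 2 in Pico, and 2 and 0 in V4. Cholangiocyte markers overlapped between treatments in each kit, erythroid markers in V4 and TruSeq, and 1 of 7 pancreas markers was listed. The part of any of these in the carriers' change was not tested.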

How the data were processed

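Per the labels and the study's methods, the authors aligned reads to mm9 with GSNAP, removed ribosomal reads, resampled the libraries of a kit to equal depth with PORT and deposited gene counts, which are whole reads. For V4 they hold both strands, for the stranded kits sense reads only. Resampling fixed the depth, so counts give shares of RNA and not amounts. Each table was normalized by itself. The study prepared Pico libraries again, and which run the table holds is not given in the sources used here. Samples were grouped by the labels' treatment and kit, and all 18 libraries were used.

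Each kit was fitted with limma-voom, as in the study (limma 3.58.1, R 4.3.3), with library totals, on every gene that had a read in any library, and p-values were adjusted over all of them by Benjamini-Hochberg. Interactions and levels between kits used the 12 libraries of a pair. Alternatives were TMM factors, totals without the 10 members, edgeR's quasi-likelihood test (4.0.16), DESeq2 (1.42.0), at least 10 counts in 3 libraries, leaving out each mouse, the mouse as a replicate block, and, added after the data were seen, thresholds of 0.01 and 0.1 and ratios without each mouse. The study's RNA of a mouse was used for all kits, so mice pair the libraries between kits. Deviations from group means correlated for the same mouse at 0.176 to 0.406 (Pico and TruSeq), 0.154 to 0.374 (V4 and TruSeq) and 0.0591 to 0.206 (Pico and V4). No 2 libraries agreed within counting noise. Treated and saline mice are different animals, and p-values of the response within a kit measure the spread between 3 mice of each. With the mouse as a block, p-values measure the spread of the differences between kits within mice. The interaction without the block takes the 12 libraries as independent, although the kits share their mice.

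The fit was tested on simulated data of each kit (18768 genes of TruSeq, 17497 of Pico and 17436 of V4 for changes of 1 on the log2 scale). It recovered 66.5% of these in TruSeq, 50.5% in Pico and 9.5% in V4, with 2.92%, 10.6% and 20.8% of its calls false. Of changes of 0.5 it recovered 0%, 1.5% and 0% (18775, 17502 and 17437 genes), with 25% of its calls false in Pico. Few genes were changed in each simulation, drawn from all genes but those with low counts. In the real data 6614 genes were called in TruSeq, 3179 in Pico and 1986 in V4. The adjustment is stricter where fewer genes change, so the recovered shares are not those expected for the members, and they cannot judge the members' calls. That reason does not cover the false shares. In Pico (10.6% and 25%) and V4 (20.8%) these were above the share that the adjusted p threshold is set to allow, and in TruSeq (2.92%) below it. The cause was not tested, nor was the share of false calls in the real data.

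Coordinates are those of the GENCODE annotation of mm9, since those of the tables were wider by 294 (Pico), 298 (V4) or 250 bases (TruSeq) at each end for all 10 members. Promoters are of RefSeq on GRCm38.p6, where 8 of 10 members matched. The members and lists were chosen with earlier results of these data known. All members are named, and from each other list at most 2 genes with the largest change in TruSeq among those called one way in all kits. Afp was named outside this rule, and 1 gene is not reported here. Summaries used Python 3.11.15 with scipy 1.17.1.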

Additional observations from a re-analysis of the deposited data

Results flagged for a closer look

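Of 30 sets of 6 mice looked at for the level of a member between kits, 1 held a mouse apart from the rest, and chance gives about 1 in 20. For Ttr, the log2 level in Pico minus that in TruSeq was -0.35 in the saline mouse U9574, while the other 5 mice lay between -0.52 and -0.47, so that its gap to the nearest mouse was 0.716 of the whole range, above Dixon's limit.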

How the results depend on the processing

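The number of members called lower in V4 depended most on the processing. Against 6 with library totals, also with the filter and without the members' own counts in the totals, it was 1 with TMM factors (Alb), 0 with edgeR's quasi-likelihood test and 0 with DESeq2 (3 members at an unadjusted p under 0.05 in each, and 1932 and 2330 genes called), 1 at an adjusted p of at most 0.01, and 1 to 4 without any one mouse. Of all V4 genes 7.41% were called lower with library totals, 4.84% with TMM factors and 5.55% with edgeR. Without any one mouse the share was 3.2% to 8.51%, and DESeq2 called 1205 genes lower. The share of all genes at an unadjusted p under 0.05 was not counted there. In Pico 4 to 7 members were called without any one mouse, against 7, with 4 without I9582, where Ahsg, Afm and Serpina6 were lost. Of all Pico genes 5.74% to 9.13% were then called lower, against 10.8%. In TruSeq 6 to 8 members were called, against 8, beside 16.9% to 18.7% of all genes, against 21.8%. Without any one mouse Alb was still called in every kit, Rbp4 and Azgp1 in Pico and TruSeq, Ttr in Pico, and Afm, Serpina6 and Pon1 in TruSeq. Ahsg was lost in TruSeq without any mouse but I9583 (adjusted p = 0.0634 to 0.111) and in Pico without I9579 (0.0548) or I9582 (0.0729), Gc in TruSeq without I9582 (0.0587), and Serpina6 in Pico without I9579, I9582 or U9576 (0.0559 to 0.0641). In V4 all but Alb were lost without I9579, I9582 or U9575. The cause was not tested. Over single members, 261 of 330 values under an alternative stayed on their side of the threshold, 65 lost the call and 4 gained it. The sign turned in 12, all uncalled values of Gc, Ttr or Fetub. The replicate block, which pairs the kits by mouse, changed no member's call in the interactions, and without the block Afm was not called between Pico and TruSeq (adjusted p = 0.118). TMM factors ended every call of Ttr, Ahsg and Gc, so whether these transcripts were lower depends on the scale. Each treatment had 3 mice, and Pico held the fewest reads.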
